A study of Mus musculus with 5 samples.

Results

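The interleukin 1 (IL-1) family and its receptors were described here in the upper back skin of hairless mice after superficial scratching and after treatment with nanomaterials. The members were 10 genes taken by name from a count table of 36716 genes: the ligands Il1a, Il1b, Il33, Il18 and Il36a, the antagonists Il1rn and Il36rn, and the receptor genes Il1r1, Il1r2 and Il1rap. All 10 members passed the filter on low counts in all 31 comparisons.

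RNA was sequenced from 153 female SKH-1 mice, a hairless stock, aged 7 to 8 weeks. In the scratched groups the skin was stroked 12 times with a metal brush and then received 10 µL of PBS (scratched + PBS), nanosized titanium dioxide (scratched + nTiO2), nanosized zinc oxide (scratched + nZnO) or nanosized silver coated with polyvinylpyrrolidone (scratched + nAg), or nothing (scratched only). The intact groups received nTiO2, nZnO, nAg or PBS on unscratched skin, and skin was taken 24 h or 7 d after treatment. Each of these groups held 8 mice, and 9 naive mice were neither scratched nor treated. Every biopsy was whole skin, so a change in the number of cells of a type and a change in RNA per cell cannot be told apart. The mice were housed 4 to a cage, and cage was not used in the tests.

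IL-1α (Il1a) and IL-1β (Il1b) bind the receptor IL-1R1 (Il1r1), which signals together with the accessory protein IL-1RAP (Il1rap), through MyD88 to NF-κB. IL-1R2 (Il1r2) is a decoy receptor that binds IL-1 without signalling, and the IL-1 receptor antagonist (Il1rn) blocks IL-1R1. IL-1α, IL-33 and IL-36 are kept in keratinocytes and other barrier cells and act as alarm signals after injury, whereas IL-1β and IL-18 are made as precursors that caspase-1 in inflammasomes cleaves. IL-33 (Il33) signals through ST2 (Il1rl1), IL-36α (Il36a) is an epidermal cytokine of inflamed skin, and its antagonist is Il36rn.

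Depth was 201053 to 4028559 unique molecules per mouse (median 1226021), and the next lowest mouse had 613961. Levels are given as CPM, the counts of a gene scaled to the same total in every mouse and without regard to gene length. RNA integrity numbers were 7.7 to 9.9. The mice were sequenced in 5 pools. At 24 h every group was spread over 2 of the first 3 pools. At 7 d all scratched groups and the nZnO and nAg groups were in pools 4 and 5, whereas the PBS and nTiO2 groups were in pools 1 to 3, so for these 2 treatments scratching and pool cannot be told apart at 7 d. The mouse nZnO, 7 d replicate 7 was listed as scratched in the treatment text of the sample sheet but as intact in its name, and it was grouped by its name. In these skin biopsies, 8 basal keratinocyte markers summed to 3651 to 6478 CPM in scratched + PBS mice at 24 h, against 3527 to 6647 CPM in PBS mice. Skeletal muscle markers varied more, with sums of 235.1 to 9460 CPM in scratched + PBS mice and 1411 to 14310 CPM in PBS mice, and their part in the results was not tested.

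On GRCm39, 7 of the members lie in 3 groups of neighbours. Il36a (chromosome 2, 24105430 to 24115714), Il36rn (24166946 to 24173438) and Il1rn (24226865 to 24241506) lie on the plus strand, and Il1a (129140291 to 129152098) and Il1b (129206490 to 129213059) on the minus strand of the same chromosome. Il1r2 (40113239 to 40164391) and Il1r1 (40264174 to 40356417) are neighbours on chromosome 1. Il33 lies on chromosome 19, Il18 on chromosome 9 and Il1rap on chromosome 16.

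The promoters of the members were searched on both strands for short motifs of factors that act in inflamed skin. RefSeq windows of 300 bases around the gene starts (GRCm38.p6) matched 8 of the 10 members, not including Il36a and Il36rn. The motifs were the NF-κB form (GGG and TTTCC with 2 bases of any kind between them), TTGCNNAA (C/EBP), TGANTCA (AP-1) and TTCCNGGAA (STAT). They occur in 1.63%, 10.8%, 7.81% and 1.15% of all 32851 windows. The matches below are shown with their motif in capitals, 5′ to 3′ on the strand of the gene, and are descriptions only.
Il33, C/EBP motif, chr19:29945695-29945722: atcgctccatTTGCATAActttactcat
Il1rn, NF-κB motif, chr2:24345310-24345339: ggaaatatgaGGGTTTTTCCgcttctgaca
Il1rn, AP-1 motif, chr2:24336709-24336735: tctgctagacTGAGTCAcgcctctgga
Il1a, AP-1 motif, chr2:129309968-129309994: cagagaagccTGACTCAgacttaagtc
Il1r1, C/EBP motif, chr1:40224937-40224964: cctggcacgtTTGCTGAAtgcttctggc
The windows of Il1b and Il1r2, which changed after scratching, held none of these letters, nor did those of Il18 and Il1rap. Il1r1 and Il1rn, which were not called after scratching, held matches, as did Il1a, which was not called at 24 h. Il1rn had 3 windows and Il33 and Il1r1 had 2 each, while the shares above are per window. The NF-κB match in Il1rn lies in the windows of 2 of its starts.

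Scratching raised the ligands Il33 and Il1b and lowered the decoy receptor Il1r2 at 24 h, over PBS and the 3 nanomaterials (32 scratched against 32 intact mice). A gene was called where the adjusted p was under 0.05 and the log2 change at least 0.33 in either direction. In this comparison 3 of 10 members were called, against 12.7% of the 12429 genes tested. The median log2 change was 0.08 over the members and -0.0024 over all genes tested.

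Il33 had 92.9 to 383 CPM in scratched mice (median 188) and 45.9 to 192 CPM in intact mice (median 113). Of the scratched mice, 28 of 32 lay above the median of the intact mice and 15 of 32 above every intact mouse. The log2 change was 0.80 ± 0.12 (SE, 1.74-fold), with an adjusted p of 1.01e-06. The higher Il33 level was seen in each pool, with means of 205, 202 and 173 CPM in the scratched mice of pools 1, 2 and 3, against 114, 115 and 113 CPM in the intact mice of the same pools.

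Il1b had 29.4 to 454 CPM in scratched mice (median 93.3) and 13.6 to 153 CPM in intact mice (median 56.8). The groups overlapped widely: 25 of 32 scratched mice were above the intact median, but only 4 of 32 above every intact mouse. The log2 change was 0.84 ± 0.20 (SE, 1.79-fold), with an adjusted p of 0.000801. Single mice were far above their groups, at 454 CPM in scratched + nTiO2, 393 CPM in scratched + nZnO, 276 CPM in scratched + nAg and 355 CPM in scratched only. Without the mice of pool 2, the change was 0.61 and the adjusted p 0.0824.

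Il1r2 had 19.8 to 99.0 CPM in scratched mice (median 52.5) and 49.5 to 165 CPM in intact mice (median 80.2). Of the scratched mice, 28 of 32 were below the intact median and 14 of 32 below every intact mouse. The log2 change was -0.58 ± 0.12 (SE), with an adjusted p of 8.18e-05. Il1r1, the signalling receptor next to it on chromosome 1, had a log2 change of -0.05 ± 0.09 (SE, adjusted p = 0.744), and the accessory receptor Il1rap one of 0.05 ± 0.05 (SE, adjusted p = 0.558).

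The other ligands and the antagonists changed less. Il18 was lower in scratched mice, at 249 ± 44.3 CPM against 289 ± 50.0 CPM in intact mice (SD, n = 32 each), a log2 change of -0.20 ± 0.07 (SE, adjusted p = 0.0152) that was below the fold threshold. Il36rn was higher by 0.17 ± 0.07 on the log2 scale (SE, adjusted p = 0.0467), also below it. Over 14 alternatives, the adjusted p was under 0.05 in 11 for Il18 and 7 for Il36rn, and reached 0.26 and 0.39 in the others. Il1a (0.25, adjusted p = 0.059), Il1rn (0.12, adjusted p = 0.101) and Il36a (-0.02, adjusted p = 0.893) did not pass the test.

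**Figure D1:**
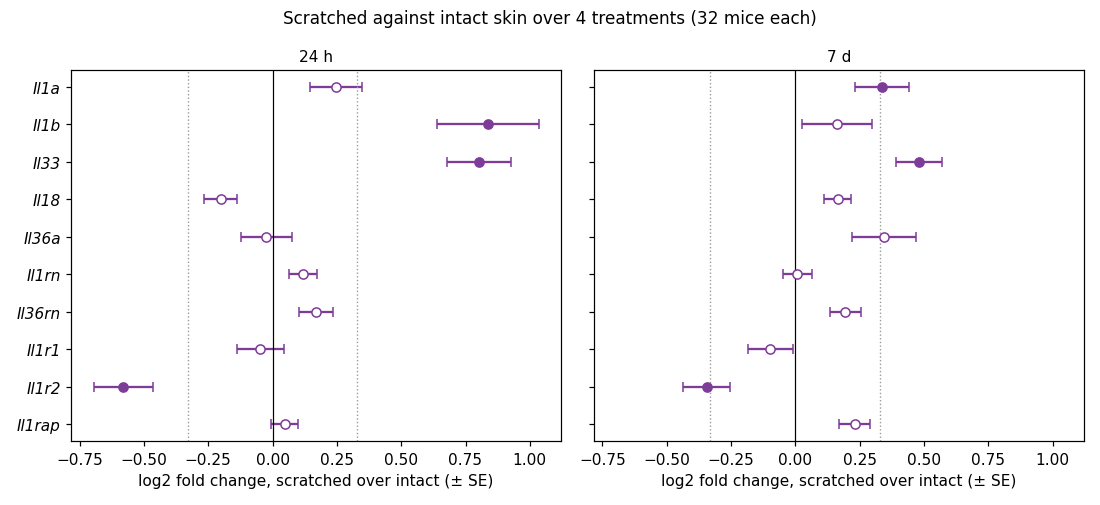
Log2 fold change of each member, scratched over intact skin over 4 treatments, at 24 h (left) and 7 d (right), with bars for 1 SE and 32 mice a side. Filled points were called, open points were not, and dotted lines mark log2 changes of 0.33 and -0.33. Il33 and Il1b stand to the right and Il1r2 to the left at 24 h.

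Each treatment had its own intact group, and the 5 scratch comparisons at 24 h shared no mice. Il33 was higher in 5 of 5, with log2 changes of 0.60 to 0.92. Il1b was higher in 5 of 5 (0.59 to 1.49) and Il1r2 lower in 5 of 5 (-0.79 to -0.36). Il18 was lower in 5 of 5 (-0.30 to -0.09). Il1rn was higher in 5 of 5, but by no more than 0.22.

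In scratched + PBS against PBS at 24 h, 2 of 10 members were called (Il33 and Il1b), against 3.39% of 11872 genes. Il33 had 107.4 to 276 CPM in scratched + PBS mice (median 186) and 45.9 to 115 CPM in PBS mice (median 100.5), and 7 of 8 scratched mice were above every PBS mouse. Its log2 change was 0.92 ± 0.19 (SE, adjusted p = 0.00809). Il1b had 73.4 to 141 CPM in scratched + PBS mice (median 90.7) and 29.0 to 82.2 CPM in PBS mice (median 54.5). Its log2 change was 0.76 ± 0.18 (SE, adjusted p = 0.022), and 5 of 8 scratched mice were above every PBS mouse. Without scratched + PBS, 24 h replicate 1 the adjusted p of Il1b was 0.0542, with pool as a covariate it was 0.083, and within pool 1, the only pool with both groups, 0.0974. Il1r2 had a log2 change of -0.79 ± 0.22 (SE) and an adjusted p of 0.0527, and 5 of 8 scratched mice were below every PBS mouse. Il1r2 was called with pool as a covariate, at -1.41 and an adjusted p of 0.00572, by DESeq2 (adjusted p = 0.0183) and limma voom (adjusted p = 0.0282), and in scratched + PBS skin without replicate 5 or 8 or in PBS skin without replicate 6 or 7, with adjusted p of 0.0133 to 0.0441.

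In scratched only against naive skin at 24 h, 3 of 10 members were called, against 2.93% of 11628 genes. Il1b had 59.0 to 355 CPM in scratched only mice (median 85.3) and 20.4 to 69.6 CPM in naive mice (median 40.7), a log2 change of 1.49 ± 0.33 (SE, adjusted p = 0.0163). Il36a had 76.3 to 153 CPM in scratched only mice (median 99.2) and 43.4 to 75.6 CPM in naive mice (median 64.2), with all 8 scratched only mice above every naive mouse. Its log2 change was 0.75 ± 0.14 (SE, adjusted p = 0.00532). Il33 had a log2 change of 0.72 ± 0.19 (SE, adjusted p = 0.0375), but this call was lost when any 1 of 11 single mice was left out, the adjusted p then being 0.05 to 0.084. Within pool 2 alone, the only pool that held both groups, Il1b had a log2 change of 1.98 (adjusted p = 0.0611) and Il36a one of 0.72 (adjusted p = 0.111). Il33 kept its call within pool 2, in a fit chosen after seeing the data. With pool as a covariate the adjusted p of Il36a was 0.0589.

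None of the 10 members were called by edgeR in scratched against intact skin of mice given nTiO2, nZnO or nAg at 24 h. The genes called there were 2.15% of 11974, 5.33% of 11699 and 1.51% of 11620. At an unadjusted p under 0.05 there were 3, 4 and 3 members, beside 2054, 2596 and 1744 of all genes tested. DESeq2 called 1, 1 and 0 members and limma voom 0 in each. Il33 had log2 changes of 0.76, 0.91 and 0.60, with adjusted p of 0.0512, 0.0592 and 0.181. With pool as a covariate, 3 members were called in scratched + nZnO against nZnO, with log2 changes of 1.38 for Il33 (adjusted p = 0.0103), 1.75 for Il1b (adjusted p = 0.0256) and -1.19 for Il1r2 (adjusted p = 0.0239). The test of whether the scratch effect differed between the 4 treatments at 24 h called 0 of 10 members and 0% of 12429 genes (edgeR), with no member at an unadjusted p under 0.05. A p that misses the threshold does not show that the treatments acted alike.

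**Figure D2:**
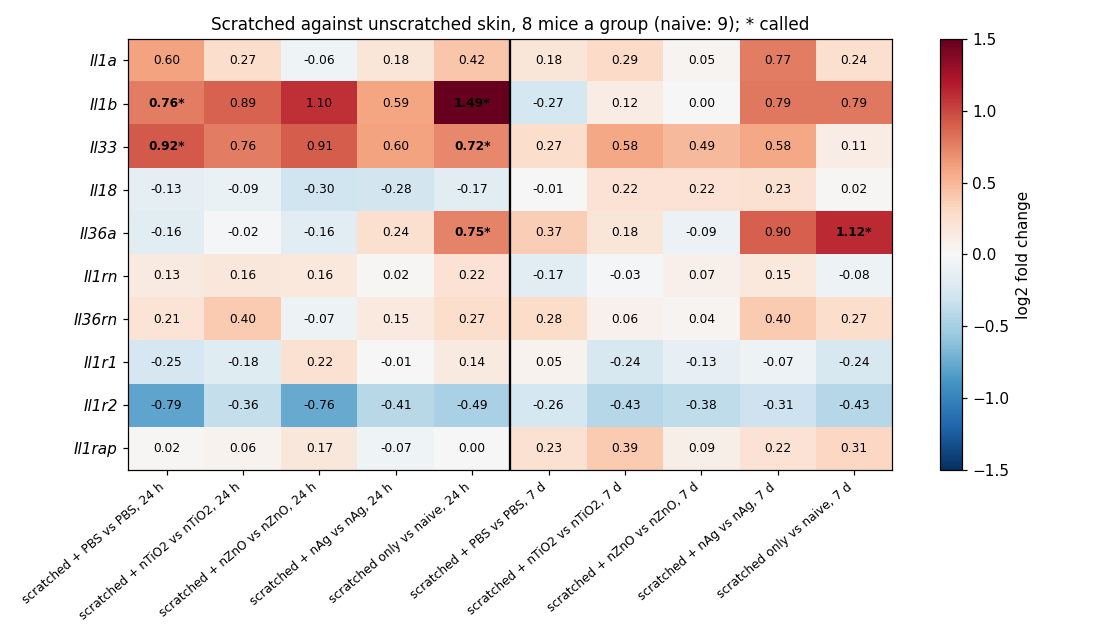
Log2 fold changes of the 10 members in 10 comparisons of scratched with unscratched skin, 24 h left of the line and 7 d right of it. Red is higher and blue lower in scratched skin, and an asterisk marks a call. Il33 and Il1b are red and Il1r2 blue in every column at 24 h.

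After 7 d, scratched skin still had more Il33 and less Il1r2 over the 4 treatments (32 against 32 mice), and the Il1b difference was not called. In this comparison 3 of 10 members were called, against 4.26% of 12451 genes. Il33 had 70.5 to 200.2 CPM in scratched mice (median 120) and 32.2 to 132 CPM in intact mice (median 90.6), a log2 change of 0.48 ± 0.09 (SE, adjusted p = 0.00034). Of the scratched mice, 12 of 32 were above every intact mouse.

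Il1r2 had 40.2 to 94.9 CPM in scratched mice (median 67.5) and 50.7 to 139.7 CPM in intact mice (median 83.8), a log2 change of -0.35 ± 0.09 (SE, adjusted p = 0.00907). Il1a had 12.3 to 38.6 CPM in scratched mice (median 21.6) and 4.97 to 27.2 CPM in intact mice (median 17.6), a log2 change of 0.34 ± 0.10 (SE, adjusted p = 0.0275). Neither call held with pool as a covariate, where the adjusted p was 0.0901 for Il1r2 and 0.101 for Il1a. Il33 kept its call there. Both Il1a and Il1r2 also lost their calls without the nTiO2 groups or without the mice of pool 3, 4 or 5, and Il1r2 without the nZnO groups or pool 2, with adjusted p of 0.0255 to 0.385 and changes of -0.44 to -0.26 for Il1r2 and 0.19 to 0.41 for Il1a. Without the mice of pool 4 no member was called and Il33 had an adjusted p of 0.171. The Il1a change was under the fold threshold without nZnO, 7 d replicate 7 (0.327) or without PBS, 7 d replicate 3 (0.329), the shallowest mouse, and its adjusted p was 0.387 without the nAg groups.

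Il1rap, Il36rn and Il18 passed the adjusted p at 7 d with changes under the fold threshold. Il1rap had a log2 change of 0.23 ± 0.06 (SE, adjusted p = 0.00833), Il36rn one of 0.19 ± 0.06 (SE, adjusted p = 0.0263) and Il18 one of 0.16 ± 0.05 (SE, adjusted p = 0.0287). Over 18 alternatives, the adjusted p was under 0.05 in 15 for Il1rap, 12 for Il36rn and 11 for Il18. It reached 0.616, 0.266 and 0.348 in the others. Mean Il1rap was 89.8 CPM in scratched against 70.9 CPM in intact mice of pool 4, and 76.1 against 71.4 CPM in pool 5. Il36a had a log2 change of 0.35 ± 0.12 (SE, adjusted p = 0.0597).

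Il1b had a log2 change of 0.16 ± 0.14 at 7 d (SE, adjusted p = 0.496), with 35.0 to 180.2 CPM in scratched mice (median 58.6) and 13.3 to 129 CPM in intact mice (median 55.4). Over the 5 separate scratch comparisons at 7 d, Il33 was higher in 5 of 5 (0.11 to 0.58), Il1r2 lower in 5 of 5 (-0.43 to -0.26), and Il1b higher in 3 and lower in 2.

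At 7 d the separate scratch comparisons called few genes. For PBS, nTiO2, nZnO and nAg, edgeR called 0 members, against 0% of 11800, 0.135% of 11859, 0.944% of 11760 and 0.611% of 11942 genes. There were 3, 3, 3 and 7 members at an unadjusted p under 0.05, beside 1302, 1510, 1829 and 1617 of all genes tested. DESeq2 called 0, 0, 1 and 2 members and limma voom 0 in each. Il1a in scratched + nAg mice had 17.04 to 38.6 CPM (median 29.0), against 8.92 to 20.9 CPM in nAg mice (median 17.6). Its log2 change was 0.77 ± 0.19 (SE, adjusted p = 0.0601), and 6 of 8 scratched + nAg mice were above every nAg mouse. The test of a treatment difference in the scratch effect at 7 d called 0 of 10 members and 0.0402% of 12451 genes (edgeR), with 2 members (Il36a and Il1b) at an unadjusted p under 0.05.

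**Figure D3:**
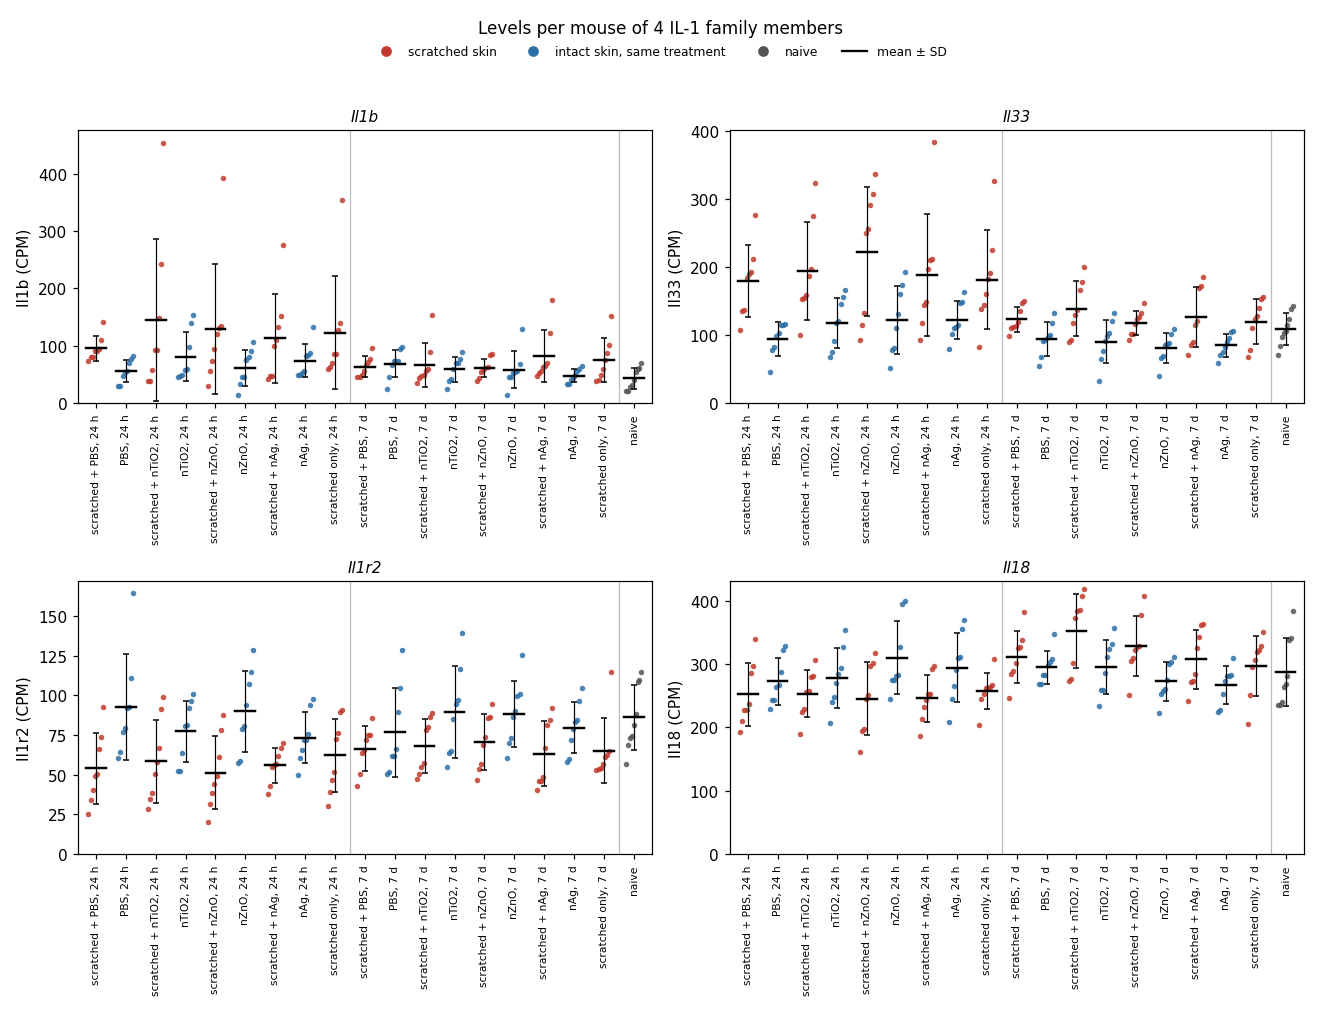
Level of Il1b, Il33, Il1r2 and Il18 in every mouse, in CPM, with each scratched group left of its intact group, 24 h before 7 d and naive mice at the right. Points are mice, horizontal lines group means and bars 1 SD. The mean Il33 level is higher in each scratched group than in its unscratched group at both times, while the high Il1b levels rest partly on single mice at 24 h.

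Il36a was the single member called in scratched only against naive skin at 7 d (1 of 10), where 1.23% of 11423 genes were called. It had 93.6 to 182.9 CPM in scratched only mice (median 131) and 43.4 to 75.6 CPM in naive mice (median 64.2), so that all 8 scratched only mice were above every naive mouse. The log2 change was 1.12 ± 0.14 (SE, adjusted p = 0.000153). Only 1 naive mouse shared a pool with these scratched mice, and with pool as a covariate no gene was called and the adjusted p of Il36a was 0.488. Il36a also had a log2 change of 0.51 in PBS against naive skin at 24 h (adjusted p = 0.286) and of 0.44 at 7 d (adjusted p = 0.489). In scratched + PBS against PBS skin it had -0.16 at 24 h (adjusted p = 0.748) and 0.37 at 7 d (adjusted p = 0.431). In scratched + nAg at 7 d, 2 mice had 258 and 376 CPM, while the other 6 had 67.4 to 148 CPM.

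**Figure D4:**
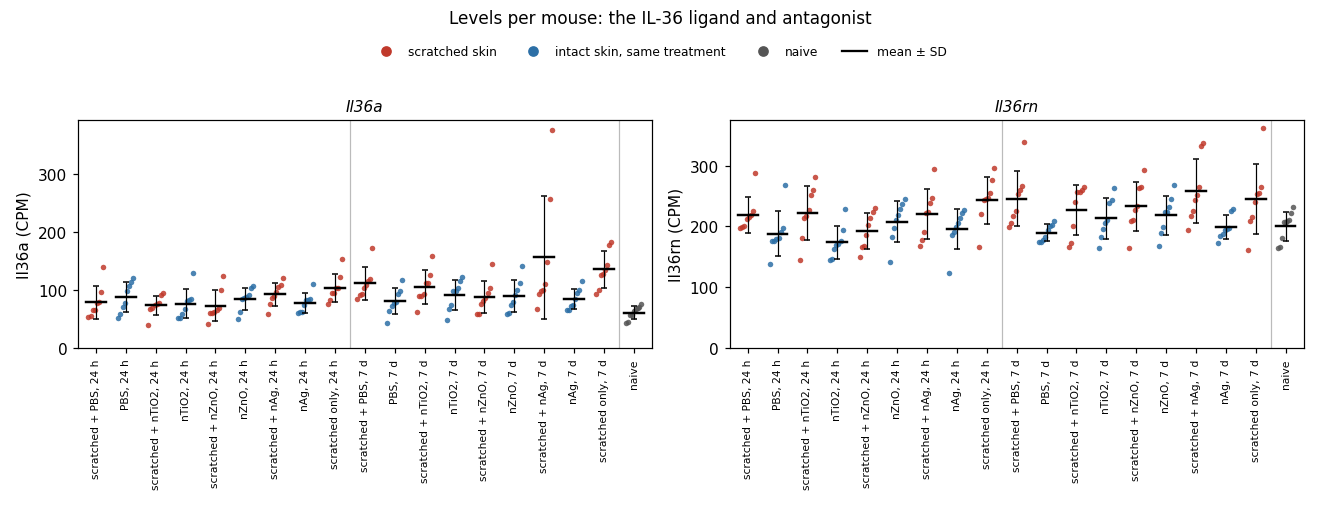
Level of Il36a and of its antagonist Il36rn in every mouse, in CPM, arranged as scratched groups left of their intact groups, with naive mice at the right. Lines are means and bars 1 SD. The naive mice have the lowest mean Il36a level of the 19 groups, at 60.8 CPM.

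The scratch effect differed between 7 d and 24 h for 1 of 10 members, Il18, against 5.66% of 12744 genes. Il18 had 326 ± 49.9 CPM in scratched mice and 283 ± 33.9 CPM in intact mice at 7 d, and 249 ± 44.3 CPM in scratched and 289 ± 50.0 CPM in intact mice at 24 h (SD, n = 32 each). Scratched skin was thus above intact skin at 7 d and below it at 24 h, with a difference in log2 change of 0.37 ± 0.08 (SE, adjusted p = 0.00107). With only the nZnO and nAg groups, whose scratched and intact mice were in the same 2 pools at 7 d, the difference was still called, and over 4 alternatives it was 0.37 to 0.51 with adjusted p of at most 0.00877. Il1b had a difference of -0.66 ± 0.25 (SE, adjusted p = 0.0814) and Il33 one of -0.31 ± 0.16 (SE, adjusted p = 0.241).

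In scratched + PBS skin, 2 of 10 members were lower at 7 d than at 24 h, against 4.42% of 11968 genes. Il1b had 44.8 to 96.1 CPM at 7 d (median 61.2) and 73.4 to 141 CPM at 24 h (median 90.7), a log2 change of -0.62 ± 0.15 (SE, adjusted p = 0.0193). Il33 had a log2 change of -0.58 ± 0.15 (SE, adjusted p = 0.0312). These groups were in different pools, so time and pool cannot be told apart. In PBS skin no member was called between 7 d and 24 h (edgeR, 0% of 11636 genes), with 0 at an unadjusted p under 0.05 and 0 called by DESeq2 or limma voom.

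With the filter on low counts and no covariate, edgeR called no member for a nanomaterial. In 12 comparisons of nTiO2, nZnO or nAg with PBS, on intact and on scratched skin at both times, edgeR called 0 of 10 members each. The log2 changes were -0.65 to 0.61. Before adjustment, 331 of 11608 to 1556 of 11644 of all genes tested were below 0.05 in a single comparison of these 12. Among 120 member tests there were 8 below 0.05 before adjustment, while DESeq2 gave 1 call and limma voom 0. Il1r1 made up 4 of these 8. It was higher in scratched + nZnO (0.36) and scratched + nAg (0.39) than in scratched + PBS skin at 24 h, and lower in scratched + nTiO2 (-0.41) and scratched + nZnO (-0.42) at 7 d, with adjusted p of 0.687 to 0.9999. All genes called were 0% of 12057, 11816 and 11684 at 24 h on intact skin for nTiO2, nZnO and nAg, and 0%, 0.0442% and 0.0859% of 11288, 11305 and 11644 at 7 d. On scratched skin they were 0% of 11608, 11590 and 11714 at 24 h and 0%, 0% and 0.00835% of 12073, 11971 and 11980 at 7 d.

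The smallest adjusted p was that of Il1b in nAg against PBS at 7 d on intact skin, with 33.4 to 64.8 CPM in nAg mice (median 45.7) and 24.9 to 97.8 CPM in PBS mice (median 72.9), a log2 change of -0.65 and an adjusted p of 0.0869. Those groups were in different pools. In scratched + nZnO against scratched + PBS at 24 h, pool as a covariate gave 3 called members where the fit without it gave 0, and pool 2 was the single pool that held both groups. With pool in the edgeR fit, Il33 had a log2 change of 1.12 (adjusted p = 0.015), Il18 -0.48 (adjusted p = 0.0312) and Il36rn -0.43 (adjusted p = 0.0288). In that fit 509 of all genes were called. PBS against naive skin gave 0 of 10 members at 24 h (0.692% of 11709 genes) and at 7 d (0.240% of 11269 genes) with edgeR, and 0 with DESeq2 or limma voom. At an unadjusted p under 0.05 there were 1 and 2 members, beside 872 and 877 of all genes tested.

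Other genes of the pathway were read from lists of related genes, and counts are for scratched against intact skin over 4 treatments at 24 h, where 12.7% of all genes were called. The lists were chosen with earlier results of these data known, so their counts are descriptions only. Of 8 tested other family members, Il1rl1 and Il18bp were higher and Il1f10 lower. Il1rl1, the IL-33 receptor, rose by 1.11 ± 0.18 on the log2 scale (SE, adjusted p = 3.91e-06), and Il18bp, a secreted inhibitor of IL-18, by 0.82 ± 0.20 (SE, adjusted p = 0.00148). Il1f10, which encodes IL-38, fell by 1.14 ± 0.24 (SE, adjusted p = 0.000172).

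Of 16 tested genes of processing and release, 5 rose and 1 fell. Nlrp3, the inflammasome sensor, rose by 1.24 (adjusted p = 0.000157), Gsdmc by 0.83 (adjusted p = 8.27e-06), Gsdmd, which forms the pore that lets IL-1β out, by 0.42 (adjusted p = 0.00199), Casp8 by 0.42 (adjusted p = 0.00288) and Mefv by 0.76 (adjusted p = 0.00413). Nlrp10 fell by 0.68 (adjusted p = 9.5e-07). Of 24 signalling genes, Myd88 (0.34, adjusted p = 0.000584) and Fos (0.37, adjusted p = 0.0406) were higher and none lower, a share below that of all genes. Of 11 feedback genes, Nfkbiz (0.51, adjusted p = 5.6e-05) and Socs3 (0.39, adjusted p = 0.0128) were higher and Tnip3 (-0.65, adjusted p = 2.96e-05) lower.

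Of 19 tested genes known to be induced by IL-1, 14 were higher and 1 lower, with a median log2 change of 0.90 over the list. The list was chosen with earlier results of these data known, and whether IL-1 caused these changes was not tested. Lcn2, an antimicrobial protein that binds iron carriers, rose by 1.65 ± 0.18 (SE, adjusted p = 2.81e-10), and the acute phase gene Saa1 by 1.62 ± 0.18 (SE, adjusted p = 3.1e-10). Saa3 rose by 1.32 ± 0.17 (SE, adjusted p = 8.26e-09), the neutrophil chemokine Cxcl5 by 1.82 ± 0.24 (SE, adjusted p = 1.44e-08) and Ptgs2, cyclooxygenase 2, by 1.71 ± 0.25 (SE, adjusted p = 2.91e-07). Ccl20 fell by 0.72 ± 0.10 (SE, adjusted p = 4.57e-08). At 7 d, 3 of 17 genes of this list were called, all higher, against 4.26% of 12451 genes. The scratch effect was smaller at 7 d than at 24 h for Lcn2 by 1.39 and for Saa1 by 1.46 on the log2 scale (adjusted p = 3.84e-05 and 0.000117).

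Markers of other cells moved with these results. At 24 h, 8 of 11 tested neutrophil markers were higher in scratched skin, 7 of 8 Langerhans and dendritic cell markers lower and 6 of 6 T cell markers lower. All 14 neutrophil markers had counts in every group, with a sum of 1169 to 4442 CPM in scratched + PBS mice at 24 h, against 393 to 2263 CPM in PBS mice. Most of that sum came from S100a8 and S100a9, which keratinocytes also express. The other 12 markers summed to 321 to 602 CPM (median 497) in scratched + PBS mice and 117 to 462 CPM (median 283) in PBS mice. Langerhans and dendritic cell markers summed to 966.3 to 2071 CPM in scratched + PBS mice and 1696 to 2562 CPM in PBS mice. Their part in the changes of Il33, Il1b and Il1r2 was not tested. At 7 d, 0 of 9 tested neutrophil markers and 9 of 14 monocyte and macrophage markers were higher. Over the 4 treatments, 12.7% of all genes were called at 24 h and 4.26% at 7 d. For PBS and nTiO2, scratching and pool cannot be told apart at 7 d.

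Among mice at 24 h, the level of Il33 went with the level of neutrophil markers. Each member was set against the sum of 12 neutrophil markers (all but S100a8 and S100a9, which keratinocytes also express), both as deviations of log2(CPM + 1) from the mean of their group. This gave 20 relations, 10 in 40 scratched and 10 in 32 intact mice, and the two-sided permutation test shuffled mice within groups. The relation was not computed for all other genes, so whether it is particular to these members was not tested. For Il33 in scratched mice, Pearson's r was 0.775 and Spearman's rho 0.741, with permutation p of 1e-05 for both, the smallest that the permutations can give (adjusted p = 6.67e-05). Without the 2 mice farthest from the median, r was 0.784, and within pools 1, 2 and 3 it was 0.753, 0.844 and 0.79. In intact mice r was 0.754 and rho 0.781 (permutation p = 5e-05 and 3e-05, adjusted p = 0.0002 and 0.00015), and r was 0.715 without the 2 farthest mice and 0.843, 0.819 and 0.58 within pools, so that the relation was present without scratching.

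Il1b behaved likewise, with r of 0.771 and rho of 0.701 in scratched mice (permutation p = 2e-05 and 4e-05, adjusted p = 0.0001 and 0.00016), r of 0.71 without the 2 farthest mice and of 0.783, 0.72 and 0.836 within pools 1 to 3. In intact mice r was 0.829 and rho 0.798 (permutation p = 1e-05 for both, adjusted p = 6.67e-05), and r was 0.821 without the 2 farthest mice and 0.912, 0.775 and 0.762 within pools. Il18 had the opposite sign in scratched mice, with r of -0.688 and rho of -0.688 (permutation p = 1e-05 for both, adjusted p = 6.67e-05), r of -0.638 without the 2 farthest mice and of -0.763, -0.537 and -0.902 within pools. In intact mice Il18 had r of -0.27 and rho of -0.231 (permutation p = 0.15 and 0.224, adjusted p = 0.177 and 0.236), and the difference between the 2 sets was not tested. Clec4d, Clec4e and Retnlg together make up most of the marker sum (31.6%, 19.6% and 19.7%), and Clec4d and Clec4e are also expressed by monocytes.

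Il1r2 had r of -0.423 and rho of -0.465 in scratched mice (permutation p = 0.00853 and 0.00444, adjusted p = 0.0155 and 0.0119) and r of -0.607 and rho of -0.515 in intact mice (permutation p = 0.00082 and 0.00628, adjusted p = 0.00205 and 0.0126). Within pools 1, 2 and 3, r was -0.536, -0.352 and -0.421 in scratched mice and -0.764, -0.844 and 0.0925 in intact mice, so the relation was not seen in the intact mice of pool 3. Without the 2 farthest mice, r was -0.483 in scratched and -0.517 in intact mice. CPM values of a mouse share a total, so that a rise of one gene lowers the share of the others.

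The antagonists had relations of opposite sign in scratched mice. Il36rn had r of -0.626 and rho of -0.597 in scratched mice (permutation p = 9e-05 and 0.00022, adjusted p = 0.0003 and 0.000733), with r of -0.581 without the 2 farthest mice and of -0.759, -0.556 and -0.645 within pools 1 to 3. It had r of -0.261 and rho of -0.332 in intact mice (permutation p = 0.171 and 0.0782, adjusted p = 0.19 and 0.0978), with r of -0.177 without the 2 farthest mice and of -0.314, -0.38 and -0.297 within pools 1 to 3. Il1rn had r of 0.558 and rho of 0.475 in scratched mice (permutation p = 0.00079 and 0.00535, adjusted p = 0.00205 and 0.0119), with r of 0.397 without the 2 farthest mice and of 0.726, 0.496 and 0.534 within pools 1 to 3. It had r of 0.503 and rho of 0.489 in intact mice (permutation p = 0.00427 and 0.0084, adjusted p = 0.00949 and 0.0153), with r of 0.456 without the 2 farthest mice and of 0.466, 0.746 and 0.403 within pools 1 to 3.

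Il36a ran against the marker sum and Il1r1 with it in scratched mice. Il36a had r of -0.438 and rho of -0.445 in scratched mice (permutation p = 0.00524 and 0.0049, adjusted p = 0.0105 and 0.0119), with r of -0.482 without the 2 farthest mice and of -0.157, -0.594 and -0.513 within pools 1 to 3. It had r of -0.346 and rho of -0.346 in intact mice (permutation p = 0.0703 and 0.0696, adjusted p = 0.1 and 0.0928), with r of -0.341 without the 2 farthest mice and of -0.237, -0.373 and -0.583 within pools 1 to 3. Il1r1 had r of 0.392 and rho of 0.416 in scratched mice (permutation p = 0.0228 and 0.0155, adjusted p = 0.0379 and 0.0239), with r of 0.414 without the 2 farthest mice and of 0.276, 0.46 and 0.442 within pools 1 to 3. It had r of 0.395 and rho of 0.313 in intact mice (permutation p = 0.0369 and 0.0986, adjusted p = 0.0568 and 0.116), with r of 0.315 without the 2 farthest mice and of 0.387, 0.724 and -0.0422 within pools 1 to 3.

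Il1a and Il1rap did not pass the adjusted test in scratched mice. Il1a had r of 0.188 and rho of 0.206 in scratched mice (permutation p = 0.26 and 0.201, adjusted p = 0.273 and 0.224), with r of 0.0678 without the 2 farthest mice and of 0.0303, 0.373 and 0.409 within pools 1 to 3. It had r of -0.199 and rho of -0.0751 in intact mice (permutation p = 0.287 and 0.657, adjusted p = 0.287 and 0.657), with r of -0.22 without the 2 farthest mice and of -0.0111, -0.232 and -0.506 within pools 1 to 3. Il1rap had r of 0.306 and rho of 0.322 in scratched mice (permutation p = 0.0799 and 0.057, adjusted p = 0.107 and 0.0814), with r of 0.185 without the 2 farthest mice and of 0.168, 0.538 and 0.221 within pools 1 to 3. It had r of 0.35 and rho of 0.463 in intact mice (permutation p = 0.0949 and 0.0139, adjusted p = 0.119 and 0.0232), with r of 0.256 without the 2 farthest mice and of 0.511, -0.317 and 0.594 within pools 1 to 3.

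**Figure D5:**
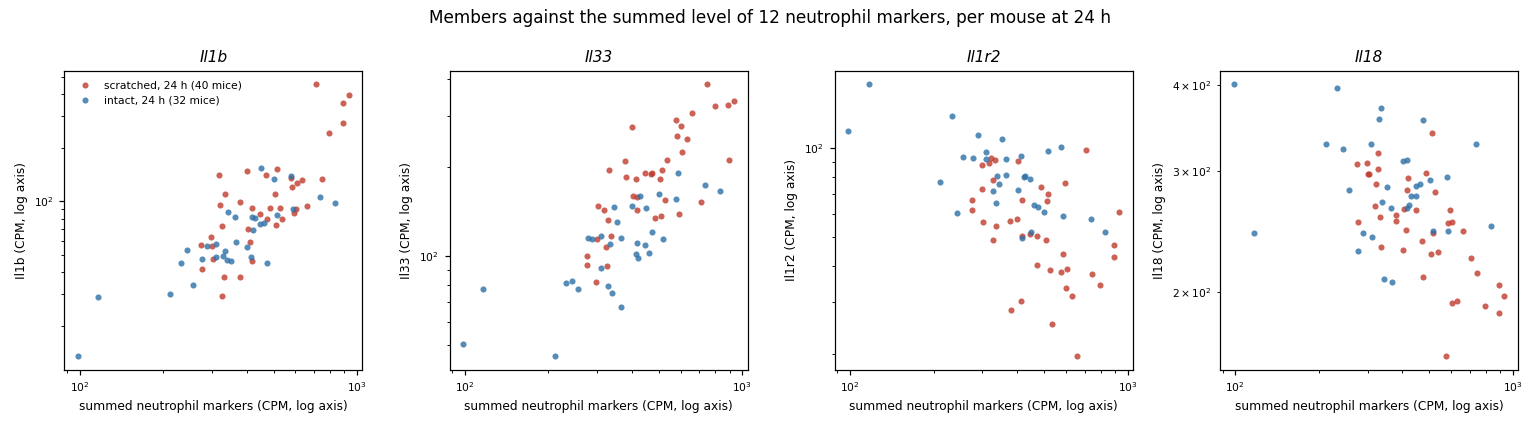
Il1b, Il33, Il1r2 and Il18 against the summed level of 12 neutrophil markers in each mouse at 24 h, both in CPM on log axes. Red points are 40 scratched and blue points 32 intact mice. Il33 and Il1b run upward with the sum. Pearson's r was 0.775 and 0.771 in scratched mice, taken on deviations of log2(CPM + 1) from group means and not on the plotted levels.

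Over the 19 group means, the genes whose levels ran most like those of a member were found among genes of at least 5 CPM, by Spearman's correlation. Group means share pools and total counts, so these values are descriptions. Il1b was nearest to Plek (0.94), Cxcl2 (0.93) and Cxcl5 (0.93), the first a protein of white blood cells and platelets and the others neutrophil chemokines. Il1r2 was nearest to Emp2 (0.96), Mgl2 (0.95), a lectin of dermal dendritic cells and macrophages, and Serpina3b (0.95). Il1rn was nearest to Cstdc4 (0.96), Mcemp1 (0.94) and Mmp8 (0.93), a neutrophil collagenase.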

How the data were processed

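The authors deposited 1 table of raw unique molecule counts per gene for 153 mice. Reads of 3′ cDNA ends were filtered with Trimmomatic, tagged with Drop-seq tools 2.4.1 and aligned with STAR 2.7.6a to GRCm39 (Gencode M28). The RNA integrity score and pool number came from the deposited sample sheet, and no sample column was left out. Groups followed the mouse names. Each comparison used edgeR 4.0.16 (R 4.3.3, quasi-likelihood test, TMM) keeping a gene if any group had over 5 counts of it in 75% or more of its mice, with Benjamini-Hochberg adjustment over all genes tested. Calls needed an adjusted p under 0.05 and a log2 change of at least 0.33, except in the tests of treatment differences. DESeq2 1.42.0 and limma 3.58.1 (voom) were alternatives, with other scaling, filters, pool as a covariate and single mice, treatments or pools left out. edgeR was tested on simulated data. Correlations across mice used 100000 permutations (SciPy 1.17.1).

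The rule named all 10 members. Of each pathway list, at most 6 genes called at 24 h over the 4 treatments, or in scratched + PBS against PBS at 24 h, were named by smallest p in the 24 h fit over the 4 treatments, and for Il1b, Il33, Il1r2 and Il1rn the 3 genes with the most similar group means (those of Il33 are not reported here). Members and lists were chosen with earlier results of these data known. No 2 mice had the same counts: of 540 pairs within groups, the lowest chi-square per degree of freedom was 1.88. P-values measure the spread between mice. Depth ranged from 201053 to 4028559 counts a mouse.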

Additional observations from a re-analysis of the deposited data

Results flagged for a closer look

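In 190 sets of mice (10 members in 19 groups), 21 single mice lay apart from the rest of their group by Dixon's test at the 95% level, while chance flags about 1 in 20 sets, or 9.5 here. Of these, 12 were in scratched groups and 19 were the highest of their group. Il1b had 5 of them: 133 CPM in nAg at 24 h, 355 CPM in scratched only at 24 h, 393 CPM in scratched + nZnO at 24 h, 276 CPM in scratched + nAg at 24 h and 153 CPM in scratched + nTiO2 at 7 d. The last 3 of the 24 h mice had neutrophil marker sums of 891, 933 and 894 CPM, each the highest of its group.

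Il36a had 129 CPM in nTiO2 at 24 h, 110.04 CPM in nAg at 24 h and 173 CPM in scratched + PBS at 7 d. Il36rn had 268 CPM in PBS at 24 h, 122 CPM (the lowest) in nAg at 24 h and 289 CPM in scratched + PBS at 24 h. Il33 had 383 CPM in scratched + nAg at 24 h, and Il1a 7.88 CPM (the lowest) in scratched + nTiO2 at 24 h.

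Il1rn had 273 CPM in scratched only at 24 h and 244 CPM in scratched + nAg at 24 h, in the same mice as the high Il1b levels there. Il1r1 had 41.7 CPM in nTiO2 at 24 h and 45.5 CPM in scratched only at 24 h. Il1r2 had 115 CPM in scratched only at 7 d. Il1rap had 89.6 CPM in naive mice, 86.3 CPM in nZnO at 24 h and 90.5 CPM in nAg at 7 d.

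The scratch effect on Il18 differed between the times by 0.37 on the log2 scale (adjusted p = 0.00107, edgeR), from a test of the difference itself.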

How the results depend on the processing

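Counts of called members were recomputed under 286 alternatives over 31 comparisons. Of these, 263 stayed within 1.5 times the reported count, with counts of 0 that stayed at 0 included, and 23 moved. Among the log2 changes of single members called in the main or an alternative fit, 0 changed sign. In scratching over 4 treatments at 24 h, 5 members were called with no fold threshold. At 7 d the count was 1 with limma voom, with pool as a covariate, without the nTiO2 groups and without pool 3, 0 without pool 4 and 6 with no fold threshold. DESeq2 gave 1 in scratched + nTiO2, 1 in scratched + nZnO at 24 h, 1 in scratched + nZnO and 2 in scratched + nAg at 7 d, each against its intact group, and 1 in nAg against PBS at 7 d. No filter on low counts gave 1, 2 and 1 in scratched + nTiO2 and scratched + nZnO at 24 h and scratched + nAg at 7 d, and 1 in nAg against PBS at 7 d. Pool as a covariate gave 3 in scratched + nZnO against nZnO and 3 against scratched + PBS at 24 h, and 0 in scratched only against naive at 7 d. Within pool 2 (chosen after seeing the data), scratched only against naive at 24 h gave 1.

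With each mouse left out in turn, the counts were 1 to 3 in scratched + PBS against PBS and 2 to 3 in scratched only against naive at 24 h, and 0 to 0 in scratched + PBS against PBS and 1 to 2 in scratched only against naive at 7 d (the last chosen after seeing the data). The count of 1 at 24 h came without scratched + PBS replicate 1, and the counts of 2 at 7 d without naive replicate 1 or scratched only replicate 5. Leaving out nZnO, 7 d replicate 7 or PBS, 7 d replicate 3 (both chosen after seeing the data) gave 2 over 4 treatments at 7 d.

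Counts over all genes moved by over 1.5 times in 49 alternatives besides single mice. Over 4 treatments they were 3310 at 24 h and 1330 at 7 d with no fold threshold, against 1584 and 530, and at 7 d 221 without the nZnO groups and 44 without pool 4. Pool as a covariate gave 509 genes in scratched + nZnO against scratched + PBS at 24 h, against 0, 1232 against 624 in scratched + nZnO against nZnO at 24 h, 0 against 141 in scratched only against naive at 7 d, and 388 against 721 for the time difference. DESeq2 gave 56 in scratched + PBS against PBS at 7 d, against 0.

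Il33 over 4 treatments at 24 h kept an adjusted p of at most 0.00162 in all 14 alternatives, with log2 changes of 0.70 to 0.94. All 190 group means moved by less than 1 SD on TMM effective library sizes. By Pearson's correlation, 2, 1, 1 and 0 of the 3 genes nearest to Il1b, Il1r2, Il1rn and Il33 were shared. Pool as a covariate could not be fitted in scratched + PBS against PBS, scratched + nTiO2 against nTiO2, nZnO and nAg against PBS and the treatment test at 7 d, nor in scratched + PBS at 7 d against 24 h. No paired analysis was possible because the samples in GEO are sequencing pools and the mouse numbers tie no mice across groups. The precision of low members such as Il1a and Il1r1 is limited by depth.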
